A study of Homo sapiens with 6 samples.

Results

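MDM4, MDM2 and 7 genes of the p53 feedback circuit (PPM1D, CDKN1A, CCNG1, BTG2, GADD45A, SESN1 and TP53INP1) were read in L428, a cell line long established from Hodgkin lymphoma. Every probe set whose annotation gives exactly 1 of these genes was taken, which gave 25 of the 41091 probe sets with 1 gene symbol. They read 8 of the 9 listed genes, out of 19775 genes in all. BTG2 had no probe set named in the annotation used here and has no value below. MDM4 was chosen by its difference between the treatments, which was among those with the smallest p, and the other genes were grouped with it. Differences between the treatments are therefore given as descriptions with their errors, and no test of them is used as support. Where these genes are counted at a p threshold, the same count or share over all tested probe sets is given beside it.

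All cells were transfected by nucleofection. One group of 3 samples received a locked nucleic acid (LNA), a chemically stiffened oligonucleotide, that inhibits the microRNA miR-9. A control group of 3 samples received an LNA of scrambled sequence. RNA was harvested at 9 h and each sample was read on 1 array (Affymetrix HG-U133 Plus 2.0), 6 in all. The labels number the replicates 1 to 3 in each group without saying whether they were separate cultures, so the spread between them may be technical. A bulk array does not tell a change in the number of cells from a change in RNA per cell.

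Values are log2 expression as deposited, on a scale whose lowest value lay between 5.97 and 6.08 on every array. A difference is the mean of the miR-9 LNA arrays minus the mean of the scrambled arrays, with the standard error from limma. Means carry SDs, each with n = 3. A probe set is called tested when its mean over the 6 arrays reached 7.11, the median of all probe sets, and 16 of the 25 did so, with at least 1 for each of the 8 genes. Differences near the lower end of this scale may be understated. All 8 Hodgkin cell markers, TNFRSF8 (CD30), IRF4, CCL17, FSCN1, FUT4, TRAF1, CD40 and CD74, lay above that filter. Of the T and NK cell markers 0 of 6 did, of the B cell markers 3 of the 5 named here, of the myeloid markers 1 of 3 and of the fibroblast and endothelial markers 5 of 7. Averaged over the markers, the Hodgkin cell markers were at 11.12 to 11.36 on the 6 arrays. The averages of the other cell types lay between 6.89 and 7.27, close to the filter. Scrambled replicate 1 stood apart from the other arrays, with a 90th percentile of 9.28 against 9.45 to 9.57, and with the spike-in dap, a bacterial RNA, at 10.05 against 7.97 to 8.55. The difference of each probe set of these genes is also given without this array.

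The p53 protein is a transcription factor that is activated by DNA damage and other stress. MDM2 and MDM4 are related proteins that bind p53 and hold its activity down: MDM2 is a ubiquitin ligase that sends p53 to the proteasome, and MDM4 mainly masks its activation domain. MDM2, PPM1D and CCNG1 are themselves switched on by p53 and act back on it, which closes the feedback loop, while CDKN1A, BTG2, GADD45A, SESN1 and TP53INP1 carry out parts of the response such as cell cycle arrest.

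The mature miR-9-5p is shown because miR-9 defines the treatment, although the labels name miR-9 without its arm. The seed, bases 2 to 8, the part that pairs with target mRNAs, is in capitals. It is encoded at 3 places in GRCh38.p14, MIR9-1 at chr1:156420392-156420414 on the minus strand, MIR9-2 at chr5:88666902-88666924 on the minus strand and MIR9-3 at chr15:89368032-89368054 on the plus strand, with the same 23 bases from each (RefSeq).
hsa-miR-9-5p: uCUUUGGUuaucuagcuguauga

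The start-site windows of these genes are shown only where they hold a p53-type sequence, since p53 control is what the target genes have in common. RefSeq windows on GRCh38.p14, running from 250 bases before to 50 bases after each start, were found for 7 of the genes, 13 windows in all. GADD45A and TP53INP1 were not matched. The p53 consensus half-site of 10 bases, which is its own reverse complement, was searched, so that 1 search covers both strands. Adjacent half-sites with at most 1 mismatch each were found at a single place, in 2 overlapping MDM2 windows, 94 and 101 bases before their start sites. These start sites belong to the internal promoter of MDM2, which is known for its response to p53. Of all 35116 windows, 0.387% hold such a pair. A half-site without mismatch was found in 1 window, of SESN1, 49 bases before a start site, where 6.63% of all windows hold 1. Capitals mark the bases that fit the consensus and lower case those that depart from it. A match is a description of the sequence and not evidence of binding. Sequence outside these windows was not searched, so a gene without a match here may hold such a sequence elsewhere.
MDM2, chr12:68808923-68808942, plus strand: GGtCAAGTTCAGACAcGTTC
SESN1, chr6:109009028-109009037, minus strand: GGACAAGTCT

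MDM4 mRNA was higher with the miR-9 LNA at 2 of its 6 probe sets, 236814_at and 225740_x_at, both well above the level filter. The other 4, which lay between 6.97 and 7.43, differed by -0.09 to 0.03. At 236814_at MDM4 was at 10.07, 10.07 and 10.16 on the miR-9 LNA arrays and at 9.68, 9.70 and 9.74 on the scrambled arrays. Each treated array lay above each control array, and the arrays within a group lay close together. The means were 10.10 ± 0.05 and 9.71 ± 0.03, a log2 difference of 0.40 ± 0.06 or 1.31-fold, which ranked 64th from the top among 27307 tested probe sets and is the value that chose the gene. Leaving out each array in turn, it ranged from 0.37 to 0.41, with 0.38 when scrambled replicate 1 was left out.

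At 225740_x_at MDM4 was at 8.70, 8.73 and 8.67 with the miR-9 LNA and at 8.08, 8.55 and 8.58 with the scrambled LNA. The groups did not overlap, but scrambled replicate 1 lay far below the other scrambled arrays. The difference was 0.29 ± 0.13, and 0.13 without scrambled replicate 1. The ending _x_at marks probe sets some of whose probes can bind other transcripts, so this reading of MDM4 is less specific.

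Of the dim MDM4 probe sets, 241876_at was at 7.13, 7.16 and 7.09 with the miR-9 LNA and at 7.25, 7.22 and 7.19 with the scrambled LNA. It lay lower on every treated array than on every control array, opposite to 236814_at, with a difference of -0.09 ± 0.06, and -0.08 without scrambled replicate 1. The remaining 3 probe sets overlapped between the groups, with differences of 0.01 ± 0.07 at 235162_at, 0.03 ± 0.09 at 225742_at and -0.04 ± 0.10 at 205655_at, the last below the level filter. These were 0.01, -0.03 and -0.14, in the same order, without scrambled replicate 1. The 6 probe sets of MDM4 therefore gave differences of both signs. Which part of the MDM4 transcript each reads was not analysed here.

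**Figure D1:**
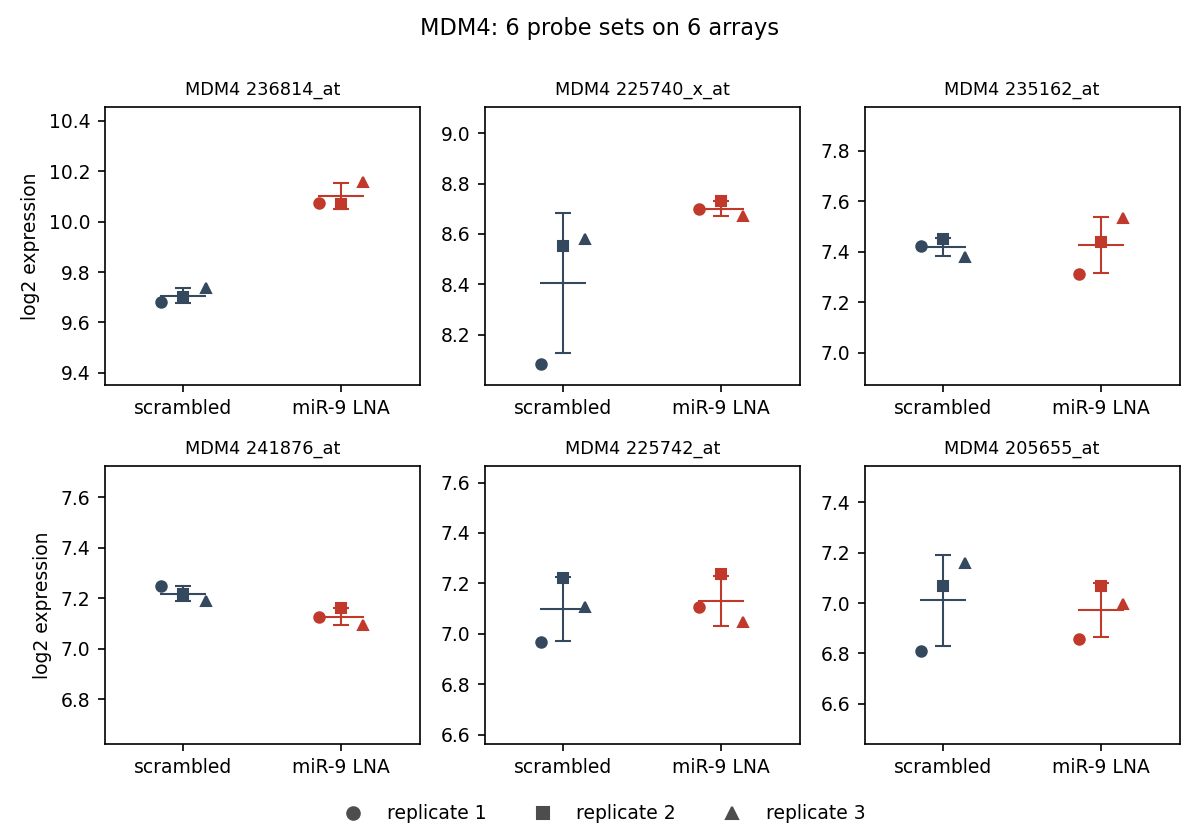
Log2 expression of MDM4 at its 6 probe sets on the scrambled LNA and miR-9 LNA arrays, with a marker shape for each replicate number, a horizontal line at each group mean and bars of 1 SD (n = 3). The treated arrays lay above the controls at 236814_at (means 10.10 and 9.71) and 225740_x_at, and below them at 241876_at.

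MDM2, the ubiquitin ligase partner of MDM4, did not show a common direction over its 10 probe sets, of which 6 were higher and 4 lower, with differences between -0.15 and 0.13. At 229711_s_at MDM2 was at 9.15, 9.23 and 9.31 with the miR-9 LNA and at 8.96, 9.12 and 9.33 with the scrambled LNA. The groups overlapped and the highest array of all was a control. The difference was 0.10 ± 0.10, and 0.009 without scrambled replicate 1 or 0.19 without scrambled replicate 3. At 217542_at, close to the level filter, MDM2 was at 7.21, 7.18 and 7.25 against 7.02, 7.04 and 7.20. This reading was higher in 3 of 3 same-numbered pairs, with a difference of 0.13 ± 0.07, and 0.09 without scrambled replicate 1, although the groups overlapped.

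The other 3 tested MDM2 probe sets are of the _x_at type. Their differences were -0.15 ± 0.15 at 225160_x_at, -0.09 ± 0.09 at 217373_x_at and 0.01 ± 0.06 at 244616_x_at. The largest spread was at 225160_x_at, where the scrambled arrays were at 7.78, 8.41 and 8.18. Its difference was -0.32 without scrambled replicate 1 and -0.008 without scrambled replicate 2, so its size rested on single arrays. The other probe sets of this type were at -0.16 (217373_x_at) and 0.05 (244616_x_at) without scrambled replicate 1. MDM2 217373_x_at was lower in all 3 same-numbered pairs. The 5 MDM2 probe sets below the level filter differed by -0.07 to 0.04, and by -0.10 to 0.02 without scrambled replicate 1.

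PPM1D, the phosphatase WIP1 that removes activating phosphates from p53 and from the kinases upstream of it, was higher with the miR-9 LNA at its tested probe set. At 204566_at PPM1D was at 8.47, 8.41 and 8.48 with the miR-9 LNA and at 8.14, 8.24 and 8.30 with the scrambled LNA. The groups did not overlap, and all 3 same-numbered pairs went the same way. The difference was 0.23 ± 0.06, and 0.18 without scrambled replicate 1. The dim PPM1D probe set 230330_at differed by -0.05 ± 0.06, and by 0.003 without scrambled replicate 1.

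CCNG1 encodes cyclin G1, which recruits a phosphatase to MDM2. At 208796_s_at CCNG1 was at 12.40, 12.24 and 12.30 with the miR-9 LNA and at 11.98, 12.15 and 12.26 with the scrambled LNA. Only scrambled replicate 3 reached into the treated range. The difference was 0.19 ± 0.09, equal to the median of 0.19 among the brightest of 5 equal bins of the tested probe sets, and 0.11 without scrambled replicate 1.

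CDKN1A encodes p21, the inhibitor of cyclin-dependent kinases through which p53 arrests the cell cycle. At 202284_s_at CDKN1A was at 7.67, 7.73 and 8.02 with the miR-9 LNA and at 7.79, 7.77 and 8.02 with the scrambled LNA. The groups overlapped fully, and the difference of -0.06 ± 0.11 was smaller than the SDs of 0.19 and 0.14. It was -0.09 without scrambled replicate 1, and its sign turned without miR-9 LNA replicate 1 (0.01) or scrambled replicate 3 (0.02). GADD45A, a stress protein induced by DNA damage, was at 10.47, 10.49 and 11.04 against 10.21, 10.42 and 11.01 at 203725_at. Replicate 3 was high in both groups, and the difference of 0.12 ± 0.23 was smaller than the spread between replicates. Single arrays turned its sign, with -0.05 without scrambled replicate 1 and -0.06 without miR-9 LNA replicate 3, while it was 0.36 without scrambled replicate 3. Compared by number, GADD45A was higher in all 3 pairs, by 0.27, 0.07 and 0.03, and with the replicate number as a block the difference was 0.12 ± 0.07.

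SESN1, a sestrin that restrains mTORC1 signalling, was at 7.69, 7.73 and 7.83 with the miR-9 LNA and at 7.46, 7.61 and 7.66 with the scrambled LNA at 218346_s_at. The groups lay side by side without overlap, with a difference of 0.17 ± 0.08, and 0.12 without scrambled replicate 1. TP53INP1, a nuclear protein that promotes p53 phosphorylation, went the other way at its tested probe set 244721_at, with 7.11, 7.03 and 7.07 against 7.29, 7.23 and 7.21. All treated arrays lay below all controls, with a difference of -0.17 ± 0.06, and -0.15 without scrambled replicate 1, at a level close to the filter. The other TP53INP1 probe sets, 225912_at and 235602_at, lay below the filter and differed by 0.05 ± 0.05 and -0.07 ± 0.07, or 0.03 and -0.01 without scrambled replicate 1.

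**Figure D2:**
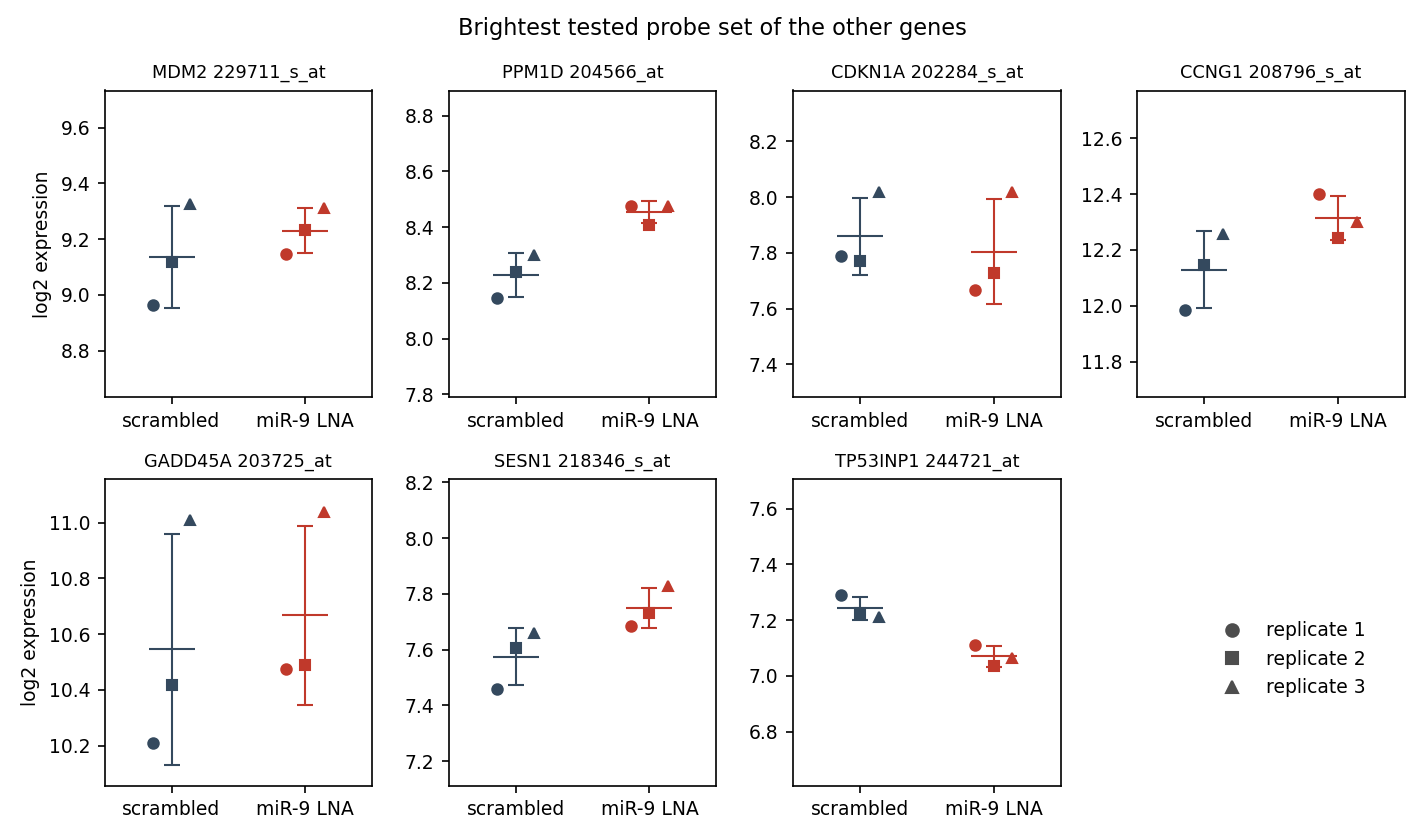
Log2 expression at the brightest tested probe set of MDM2, PPM1D, CDKN1A, CCNG1, GADD45A, SESN1 and TP53INP1 on the 6 arrays, with markers by replicate number, lines at group means and bars of 1 SD (n = 3). PPM1D and SESN1 lay higher and TP53INP1 lower with the miR-9 LNA without overlap, while GADD45A and CDKN1A separated replicate 3 from the rest in both groups.

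Of the 16 tested probe sets, 11 were higher and 5 lower with the miR-9 LNA, with a median difference of 0.06. Over all 27307 tested probe sets 66.9% were higher, also with a median of 0.06. Single arrays moved the median of the 16, to 0.01 (9 higher) without scrambled replicate 1, 0.02 (8 higher) without miR-9 LNA replicate 3 and 0.11 (11 higher) without scrambled replicate 3. Over all tested probe sets these medians were 0.04, 0.05 and 0.07, with 63.2%, 63.6% and 67.7% higher. Each treated array lay above each control array for 4 of the 16 probe sets (MDM4 236814_at and 225740_x_at, PPM1D 204566_at and SESN1 218346_s_at), where 18.1% of all tested probe sets did so. In the lower direction the groups did not overlap for 2 (MDM4 241876_at and TP53INP1 244721_at), against 3.97% overall. At a limma adjusted p under 0.05, 0 of the 16 passed, as did 0% of all tested probe sets. At an unadjusted p under 0.05 limma gave 2 higher (MDM4 236814_at and PPM1D) and 1 lower (TP53INP1 244721_at), against 13.8% and 0.626% of all tested probe sets. With the replicate number as a block, SESN1 and MDM4 225740_x_at were added, which gave 4 higher and 1 lower at an unadjusted p under 0.05 in limma, against 21.8% and 1% of all tested probe sets. In the fit without the block, leaving out scrambled replicate 3 gave 6 higher and 1 lower at an unadjusted p under 0.05 in limma. Of all 27307 tested probe sets, 4163 and 220 did so. Leaving out miR-9 LNA replicate 2 gave 2 higher and 0 lower, against 2492 and 42 of all tested probe sets. Leaving out miR-9 LNA replicate 3 also gave 2 higher and 0 lower, against 3190 and 147. Same-numbered pairs were all higher for 7 of the 16, namely MDM4 236814_at and 225740_x_at, MDM2 217542_at, PPM1D, CCNG1, GADD45A and SESN1. They were all lower for 3. The share of all tested probe sets with all pairs higher was not counted, so the 7 have no base to be set against. Nothing is read from these counts, since the genes were grouped with this contrast in view.

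The size of a difference went with the level of the probe set over the whole array, from a median of -0.03 in the dimmest of these 5 bins to 0.19 in the brightest. Against the median of its own bin, MDM4 236814_at had 0.40 against 0.19, 225740_x_at 0.29 against 0.14 and PPM1D 0.23 against 0.06. Others lay below the median of their bin. GADD45A had 0.12 against 0.19 and MDM2 229711_s_at 0.10 against 0.14. MDM2 225160_x_at had -0.15 and CDKN1A -0.06, both against 0.06. After quantile normalization, which gives all arrays the same distribution, the differences were 0.22 for MDM4 236814_at, 0.19 for 225740_x_at, 0.14 for PPM1D, 0.16 for SESN1 and -0.15 for TP53INP1 244721_at. CCNG1 was then at 0.008. The differences of GADD45A (-0.06), MDM2 229711_s_at (-0.05) and MDM2 244616_x_at (-0.005, from 0.01) had changed sign. After it the 16 tested probe sets were split 8 higher and 8 lower, and their median was 0.002, against 51.5% higher among all tested probe sets.

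**Figure D3:**
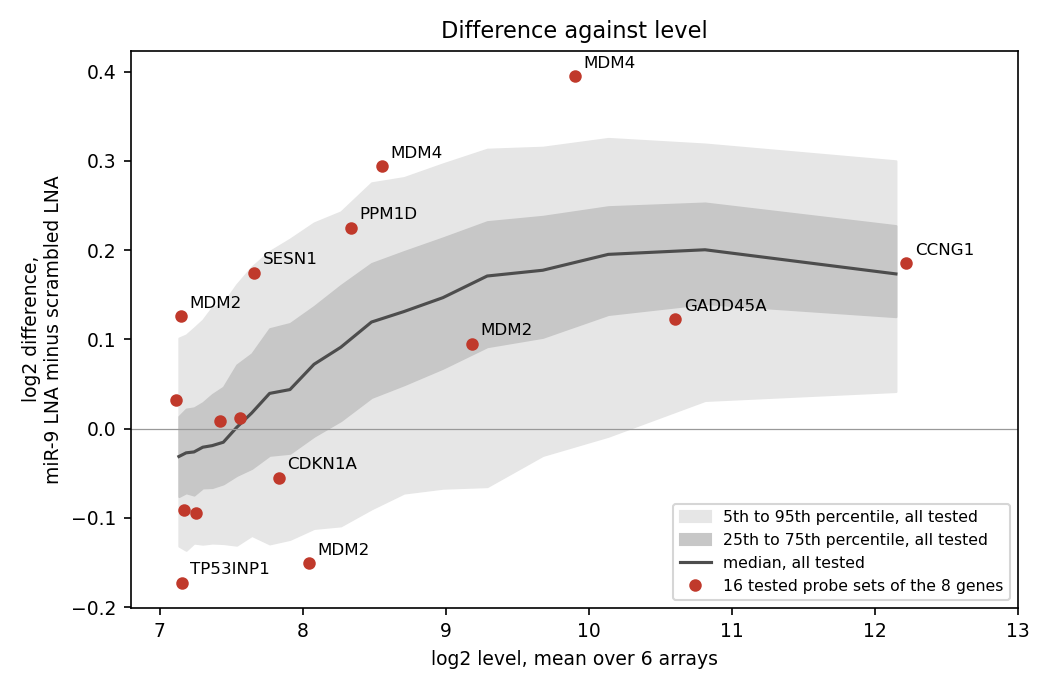
Log2 difference (miR-9 LNA minus scrambled LNA) against the log2 level over 6 arrays for the 16 tested probe sets (points, brighter or further ones named), over the median and the percentile bands of all 27307 tested probe sets in 20 bins of level. MDM4 236814_at (0.40), MDM4 225740_x_at (0.29) and MDM2 217542_at (0.13) lay above the upper band. TP53INP1 (-0.17) and MDM2 225160_x_at (-0.15) lay below the lower band, and CCNG1 lay near the median line.

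**Figure D4:**
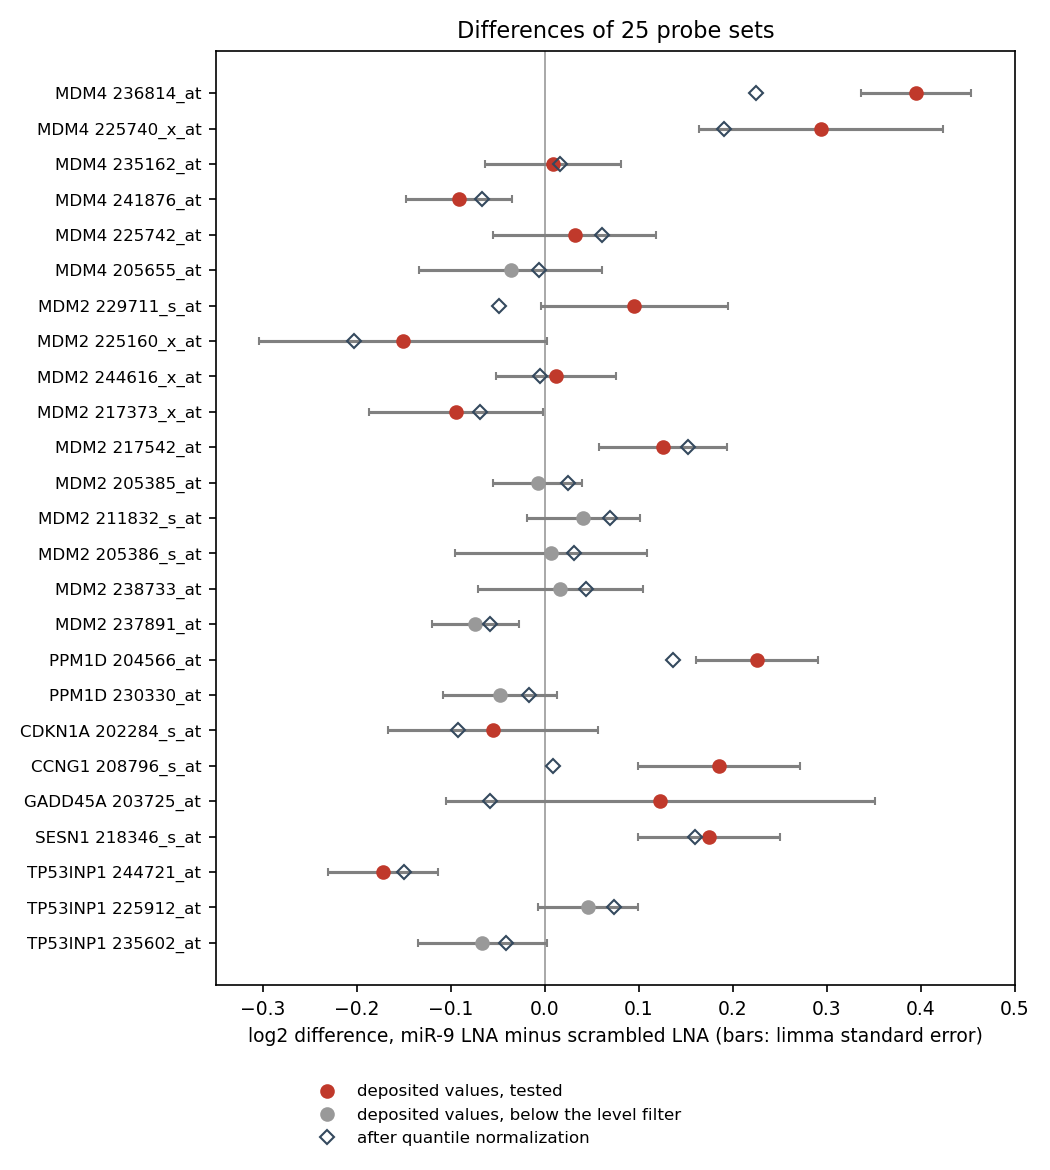
Log2 difference (miR-9 LNA minus scrambled LNA) of all 25 probe sets in the deposited values, with limma standard errors as bars, and after quantile normalization (open diamonds). The diamonds lie closer to 0 than the points for MDM4 236814_at (0.22 against 0.40), PPM1D and CCNG1. They lie on the other side of 0 for GADD45A and for MDM2 229711_s_at, 244616_x_at and 205385_at.

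A pattern that the choice of genes did not use was the agreement between same-numbered arrays of the groups. GADD45A was high on replicate 3 of both, by 0.56 over the mean of replicates 1 and 2 with the miR-9 LNA and by 0.70 with the scrambled LNA. This separation was several times its treatment difference of 0.12. With the treatment in the fit, a limma F-test of the replicate number gave GADD45A rank 143 of 27307 tested probe sets and an adjusted p of 0.0732, where 13 probe sets (0.0476%) passed. The adjusted p of this limma test was 0.0255 after quantile normalization, where 2.13% of probe sets passed, and 0.0189 after cyclic loess normalization, where 3.27% passed. GADD45A was picked for this test after its values were seen.

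Other genes of the circuit were also highest on replicate 3 in both groups. By replicate number, the mean over both treatments was 7.73, 7.75 and 8.02 for CDKN1A, 7.12, 7.28 and 7.36 for MDM2 217373_x_at and 9.06, 9.18 and 9.32 for MDM2 229711_s_at. None of these passed the limma F-test over all probe sets, with adjusted p of 0.184, 0.263 and 0.292. Together with GADD45A, 4 of the 16 tested probe sets had an unadjusted p under 0.05 in this test, against 16.1% of all tested probe sets. After quantile normalization replicate 3 was the highest array in both groups for 7 of the 16, against 18.0% of all tested probe sets. In the deposited values it was so for 8 of the 16, against 22.9%. The 8 were GADD45A, CDKN1A, SESN1, PPM1D, MDM4 236814_at and MDM2 229711_s_at, 217373_x_at and 217542_at. What the same-numbered samples share is not given in the labels. At MDM4 236814_at the means by replicate number were 9.88, 9.89 and 9.95, a range of 0.07 beside its treatment difference of 0.40.

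**Figure D5:**
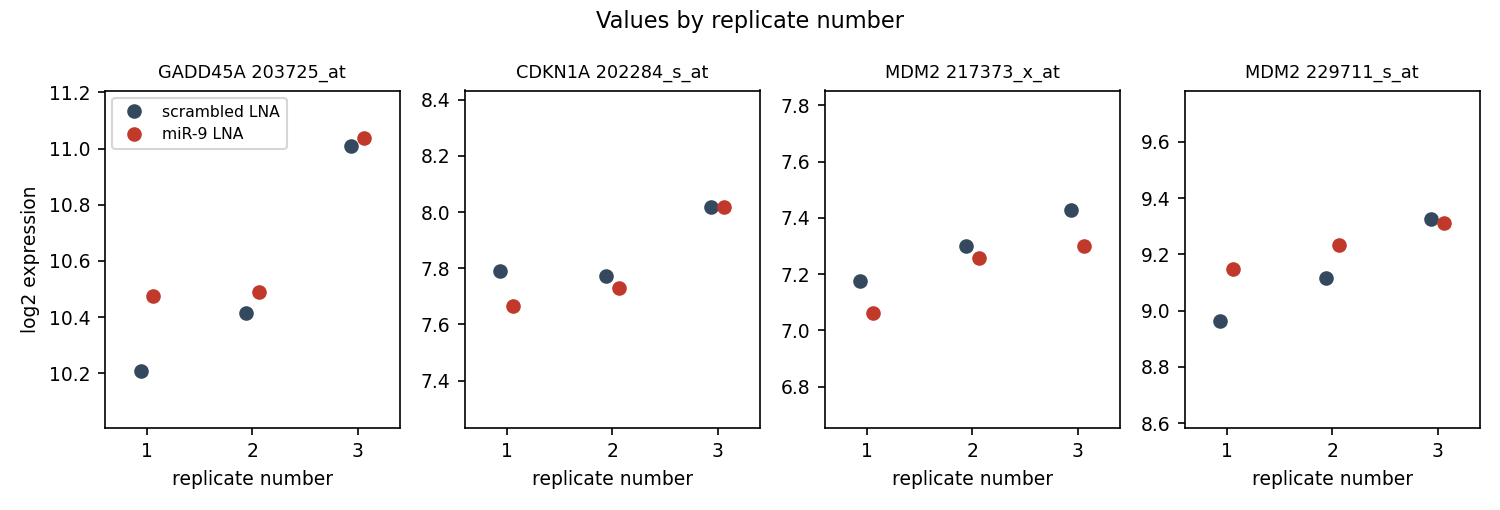
Log2 expression of GADD45A, CDKN1A and MDM2 (2 probe sets) by replicate number, 1 point for each array of the scrambled LNA and miR-9 LNA groups, with vertical axes of equal span. Replicate 3 of each group was the highest of its group in all 4 panels, near 11.0 for GADD45A and 8.02 for CDKN1A.

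The genes whose pattern was most like MDM4 at 236814_at were found by Pearson's r over the 6 arrays, among 22450 tested probe sets with 1 symbol. On the values as they stand these were ZNF75A (0.998), FBXO31 (0.998), DHX33 (0.994), INTS7 (0.994) and POLR3E (0.992), with treatment differences of 0.11 to 0.34. After subtracting the group means they were TMTC3 (0.999), SLC25A22 (0.998), KSR1 (0.998), BIN1 (0.997) and USP53 (0.996). In the first ranking 816 probe sets had r over 0.9 and in the second 973. On the values r largely carries the treatment difference of 0.40 at 236814_at that chose MDM4, so it is not separate from that choice. Among the other genes of the circuit, PPM1D had r = 0.94 with MDM4 on the values and 0.66 after subtracting the group means. SESN1 had 0.85 on both. CDKN1A had -0.04 on the values and 0.95 after the subtraction, and GADD45A 0.35 and 0.93. CCNG1 had 0.74 and 0.38, and the MDM4 probe set 225740_x_at 0.70 and 0.33. The tested MDM2 probe sets had -0.30 to 0.81 on the values and 0.29 to 0.76 after the subtraction. After the subtraction MDM4 236814_at itself ranged only from -0.03 to 0.06, so these r follow very small deviations. In the opposite direction, TP53INP1 244721_at had -0.94 on the values and -0.37 after the subtraction, and the MDM4 probe set 241876_at had -0.93 and -0.90.

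Further genes of the pathway were read from lists written for this comparison, each gene by its brightest tested probe set. Of all 12367 tested genes, 8661 had a difference above 0, and the median difference was 0.08. In every list 0 genes passed a limma adjusted p under 0.05 in either direction, and the counts at an unadjusted p under 0.05 in limma are given beside each list. Over all tested genes the latter share was 17.4% higher and 0.598% lower. Without scrambled replicate 1 the median of all tested genes was 0.06, and 70.0% of them were higher.

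Among kinases upstream of p53 and its family members, 10 of 13 tested genes were higher, with a median difference of 0.16, and 3 were higher at an unadjusted p under 0.05 in limma. AURKA, a mitotic kinase, had the highest difference in this list with 0.30 ± 0.10, beside ATR, the replication stress kinase, with 0.30 ± 0.12. PLK1 (-0.11 ± 0.08) and the checkpoint kinase CHEK2 (-0.08 ± 0.07) were at the lower end. The median of this list was 0.10 without scrambled replicate 1, with 9 of 13 higher, AURKA at 0.19 and PLK1 at -0.05. Among partners and modifiers of p53, MDM2 and MDM4, 27 of 31 were higher, with a median of 0.14, and 7 were higher and 0 lower at an unadjusted p under 0.05 in limma. PSMD10, the MDM2-binding protein gankyrin, differed by 0.31 ± 0.13 and RCHY1, another ubiquitin ligase of p53, by 0.28 ± 0.13. CDKN2A, which encodes the MDM2 inhibitor ARF beside p16, differed by -0.08 ± 0.08, and PPP1R13B by -0.07 ± 0.07. Without scrambled replicate 1 the median fell to 0.05, with 25 of 31 higher, and PSMD10 was at 0.16, RCHY1 at 0.16 and PPP1R13B at -0.03.

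Other p53 target genes were read from a pair of lists. Among those of apoptosis, 13 of 17 were higher with a median of 0.06, and 0 had an unadjusted p under 0.05 in limma in either direction. The death receptor FAS differed by 0.27 ± 0.17 and TRIAP1 by 0.20 ± 0.10, while ZMAT3 differed by -0.08 ± 0.17 and AIFM2 by -0.10 ± 0.07. When scrambled replicate 1 was left out, FAS was at 0.07, TRIAP1 at 0.13 and ZMAT3 at -0.28, and the median of the list was 0.05. ZMAT3 turned its sign without miR-9 LNA replicate 2 (0.02), scrambled replicate 2 (0.01) or scrambled replicate 3 (0.03). The median was 0.03 without scrambled replicate 2 and 0.11 without scrambled replicate 3. Among targets of arrest, repair and metabolism, 18 of 23 were higher with a median of 0.08, and 2 were higher and 0 lower at an unadjusted p under 0.05 in limma. ASCC3, a helicase, differed by 0.28 ± 0.06 without overlap between the groups and E2F7 by 0.26 ± 0.19, while SFN and CMBL each differed by -0.05. The median was 0.04 without scrambled replicate 1 and also without miR-9 LNA replicate 3. Without scrambled replicate 1 E2F7 was at 0.08, SFN at -0.03 and CMBL at -0.12, while ASCC3 was at 0.27.

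Paralogs of the listed genes were higher for 16 of 19, with a median of 0.14, and 2 were higher and 0 lower at an unadjusted p under 0.05 in limma. PPM1K, a mitochondrial phosphatase related to PPM1D, differed by 0.28 ± 0.06 without overlap, and CCNI by 0.20 ± 0.12. SESN2 differed by -0.15 ± 0.09, where SESN1 had 0.17 ± 0.08, and PPM1M by -0.04 ± 0.06. Without scrambled replicate 1 the median was 0.07, with 12 of 19 higher, and without miR-9 LNA replicate 3 it was also 0.07. PPM1K was at 0.26, CCNI at 0.33 and SESN2 at -0.23 without scrambled replicate 1. After quantile normalization the medians of all 5 lists lay between -0.02 and 0.007, and that of all tested genes at -0.001. At the same setting AURKA was at 0.12, PSMD10 at 0.13, ASCC3 at 0.10 and PPM1K at 0.13.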

How the data were processed

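Expression was measured in 6 samples of L428, 3 for each treatment. The values the authors deposited are log2 expression. The submitters' processing notes name affy and RMA, whose versions are not given in the sources used here. Whether an offset was added is not given either. From these values 62 control probe sets of 54675 were left out, and the 27307 whose mean reached the overall median (7.11) were tested two-sided by lmFit and eBayes (limma 3.58.1, R 4.3.3), p-values adjusted by Benjamini-Hochberg and a threshold of 0.05. Members below the filter were read from a fit without it. The number of arrays limits the precision.

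Probe sets were named from the platform annotation where it gives 1 symbol. The genes, the lists and the naming rule were chosen with earlier results of these data known. The rule takes every probe set of the genes, the 2 highest and 2 lowest of each list, and the 5 genes most like MDM4. Same-numbered arrays deviated together from their group means (r = 0.231, 0.193 and 0.634 across probe sets). Other-numbered arrays had r of -0.429 to 0.168, so the margin was narrow for replicates 1 and 2, and this pairing rests on the data alone. The alternatives were other filters, normalizations, variance models, array weights, replicate block and each array left out, and the F-test of replicate number was added after the data were seen. The fits were tested on simulated data. Python 3.11.15 and matplotlib 3.10.9 drew the figures.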

Additional observations from a re-analysis of the deposited data

How the results depend on the processing

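No probe set passed a limma adjusted p under 0.05 in the whole table under any alternative run. Probe sets with an unadjusted limma p under 0.05 numbered 3926, against 2584 with the stricter level filter, 1243 after quantile and 1348 after cyclic loess normalization, 6218 with the replicate block, and 2408 (without miR-9 LNA replicate 1) to 4383 when each array was left out; without miR-9 LNA replicate 2 it gave 2534. The difference of MDM4 236814_at fell from 0.40 to 0.22 after quantile normalization, alone or with the replicate block, and to 0.21 after cyclic loess normalization. Under all 15 alternatives 13 of the 25 probe sets kept their sign, MDM4 236814_at among them. The stricter filter tests fewer probe sets, so its counts do not have the same base as the others. Of the probe sets of these genes that it kept, 6 were higher and only MDM2 225160_x_at was lower (-0.15). Their median was 0.19, against 0.06 for the 16, of which 11 were higher. Among all tested probe sets the brightest of 5 level bins also had a median of 0.19. Of 375 values of single probe sets under the alternatives, 359 moved by less than 1 SD between replicates. The replicate block leaves the differences as they are and changed no call at an adjusted p. At an unadjusted limma p under 0.05 it added SESN1 and MDM4 225740_x_at. Over all tested probe sets the share higher at that threshold rose from 13.8% to 21.8%. Nothing is read from the additions, since the genes were grouped with this contrast in view. The adjusted p of GADD45A for replicate number was 0.0732, and 0.0255 and 0.0189 after quantile and cyclic loess normalization. The floor near 6 limits what the dim probe sets can show.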

Other observations

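Replicate 3 was the highest array in both groups for 6 of 17 p53 target genes of apoptosis, 8 of 23 of arrest, repair and metabolism, 6 of 19 paralogs and 4 of 13 family members and kinases, each gene by its brightest tested probe set. Among the partners and modifiers of p53, MDM2 and MDM4 it was so for 2 of 31. Over all 12367 tested genes the share was 21.5%. After quantile normalization the counts were 5, 6, 6, 4 and 1 in the same order, against 15.9% of all tested genes. At an adjusted p under 0.05 in the limma F-test of replicate number, 0 genes of any of these lists passed, and at an unadjusted p under 0.05 the test gave 3, 4, 6, 4 and 2, which are 17.6%, 17.4%, 31.6%, 30.8% and 6.45% of the lists, against 14.7% of all tested genes.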
